A study of Homo sapiens with 6 samples.

Results

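The insulin-like growth factor (IGF) binding protein genes IGFBP2, IGFBP3, IGFBP4, IGFBP5, IGFBP6 and IGFBP7, the receptor genes IGF1R, IGF2R and INSR, and the adaptor gene IRS1 were followed in LN229 cells, an established human glioblastoma line. They are 10 of the 58735 genes in the count table, picked by symbol, and all 10 passed the low-count filter that left 16322 genes for testing. The samples were 3 RNA sequencing libraries labelled HSD52 overexpression (HSD52_OE), in which HSD52, a gene that the table classes as a non-coding processed transcript, is overexpressed, and 3 labelled WT (control). The labels name no empty vector in the control cells, no vector or clone for the overexpression, and no separate cultures, so the p-values reflect how far these libraries differ, and part of that spread may be technical.

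IGF1 and IGF2 are secreted growth factors that act through the receptor tyrosine kinase encoded by IGF1R, and insulin acts through its close relative encoded by INSR. The activated receptors phosphorylate adaptors of the IRS family, which recruit PI3-kinase and so turn on AKT and mTOR. The secreted binding proteins hold IGFs in the extracellular space, where they can either withhold the ligand or deliver it once proteases cut them. IGF2R, also the cation-independent mannose 6-phosphate receptor, carries IGF2 to lysosomes for breakdown and has no kinase. In glioma, this axis is known as a route to survival signalling, and IGFBP2 is known as a gene of high-grade tumours.

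The transcript of IRS1 was 3.44-fold lower and that of IGFBP7 2.17-fold lower in HSD52_OE than in control cells, and IGF1R fell by 0.56 on the log2 scale. IGFBP5 and IGFBP4 rose, by log2 fold changes of 0.42 and 0.35. INSR was called lower by a small margin, and IGFBP2, IGFBP3, IGFBP6 and IGF2R did not pass the test. Thus 2 of the 10 genes rose and 4 fell (edgeR's quasi-likelihood test, Benjamini-Hochberg adjusted p under 0.05 over all genes tested). Over all 16322 genes, 50.6% were called, 25.0% higher and 25.6% lower, so the count of called genes in the family is near the background. Among protein-coding genes tested, 21.4% were higher and 30.1% lower. The changes of at least 2-fold, in IRS1 and IGFBP7, are 2 of 10, where 14.0% of all genes tested were called at that size. The libraries of the groups did not overlap for 5 of the 10 genes and for 58.9% of all genes tested. The median log2 fold change of the 10 genes was -0.025, and that of all genes tested was 0.0072.

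**Figure D1:**
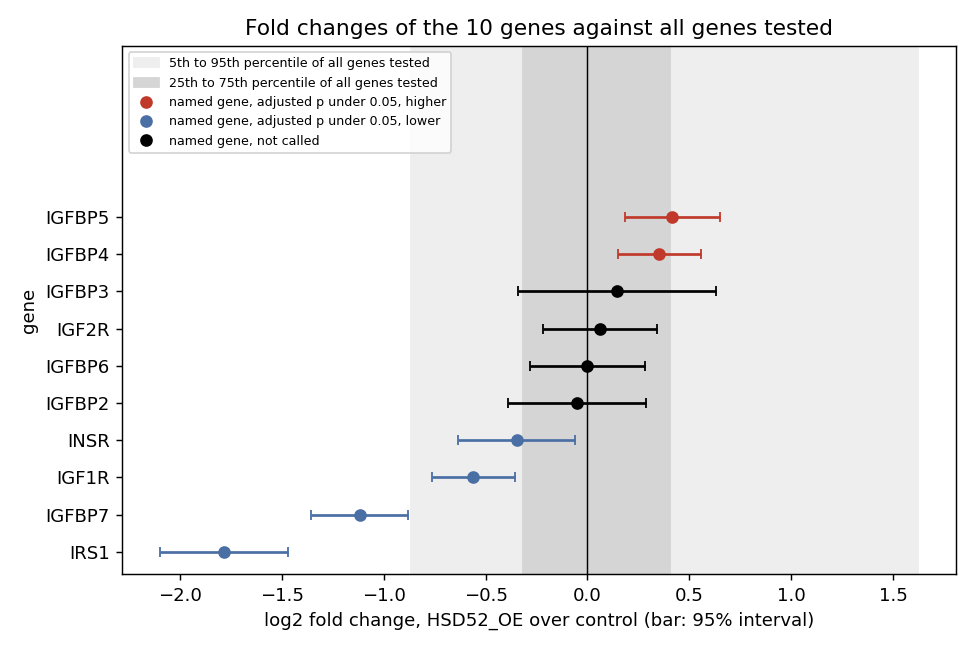
Log2 fold changes, HSD52_OE over control, of the 10 genes (points, with 95% intervals as bars), ordered by value down the page, over grey bands that span the 25th to 75th and the 5th to 95th percentile of all 16322 genes tested. IGFBP7 at -1.12 and IRS1 at -1.78 lie below the 5th percentile of -0.86, while the genes that rose lie near the 75th percentile of 0.41.

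HSD52 itself had 1252, 1336 and 1327 counts in the HSD52_OE libraries, against 11, 7 and 12 counts in the control libraries. Library totals ranged from 17777157 to 18917790 counts. The 8 markers fixed for a glioblastoma line (VIM, NES, CD44, SOX2, EGFR, GFAP, OLIG2 and S100B) had counts in both groups. The control libraries differed more among themselves: chi-square per degree of freedom was 2.23 to 3.51 between HSD52_OE pairs and 15.1 to 18.6 between control pairs. For the 10 genes, the coefficient of variation was smaller in HSD52_OE than in control for 10 of 10, as for 76.2% of all genes tested. Control replicate 3 was the lowest control library for 10 of the 10 genes, and for 37.1% of all genes tested. HSD52_OE libraries held counts in 26359 to 26755 genes and control libraries in 22855 to 23545, and long non-coding RNAs took 1.29% to 1.36% and 0.795% to 0.895% of counts. Levels are given as CPM, counts scaled to a common library size. The 8 glioblastoma line markers summed to 2788 to 2840 CPM in HSD52_OE and 2927 to 3282 CPM in control libraries. EGFR (log2 fold change -1.05), S100B and CD44 were called lower in HSD52_OE, and SOX2 and GFAP higher. VIM, NES and OLIG2 did not pass the test. The 9 fibroblast markers summed to 66.2 to 70.6 CPM in HSD52_OE and 149 to 244 CPM in control libraries. COL1A1, COL1A2, COL3A1, DCN, LUM, PDGFRA, PDGFRB and THY1 were called lower in HSD52_OE, and FAP higher. None of the 9 was at 0 in every library of a group. The epithelial markers summed to 168 to 181 CPM in HSD52_OE and 118 to 137 CPM in control libraries. KRT8 and KRT18, which make up nearly all of that sum, were both higher in HSD52_OE, while EPCAM had 1 count in HSD52_OE and 0 in control libraries, and CDH1 had 0 in both. The leukocyte markers summed to 2.24 to 4.22 CPM in HSD52_OE and 1.39 to 2.45 CPM in control libraries, mostly from LYZ and CD14, and CD3E had 0 counts in both groups. The part of these differences in the results below was not tested. In bulk RNA, fewer cells of a type and less RNA per cell cannot be told apart.

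Promoter sequence is shown for the 5 genes that passed the test and have an entry in the RefSeq promoter table. Its build is GRCh38.p14, of the same hg38 assembly as the counts. Counts are per gene and do not show which start of transcription was used. Of the 10 genes, 9 had an entry; IGFBP7 was not among them. Each window runs from 250 bases before to 50 bases after the RefSeq start, 5′ to 3′ on the gene's strand, and capitals mark matches on either strand to 5 short motifs, a GC box, a TATA box, an AP-1 site, an E-box and a FOXO site, whose letters follow the sequences.
IRS1, chr2:226799771-226800070, minus strand: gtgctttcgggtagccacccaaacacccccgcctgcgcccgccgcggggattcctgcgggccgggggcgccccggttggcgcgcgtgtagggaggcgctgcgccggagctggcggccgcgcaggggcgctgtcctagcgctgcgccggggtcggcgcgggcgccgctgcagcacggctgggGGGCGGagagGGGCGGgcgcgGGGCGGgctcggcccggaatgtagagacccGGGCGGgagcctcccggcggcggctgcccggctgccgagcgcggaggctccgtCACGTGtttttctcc
IGF1R, chr15:98648289-98648588, plus strand: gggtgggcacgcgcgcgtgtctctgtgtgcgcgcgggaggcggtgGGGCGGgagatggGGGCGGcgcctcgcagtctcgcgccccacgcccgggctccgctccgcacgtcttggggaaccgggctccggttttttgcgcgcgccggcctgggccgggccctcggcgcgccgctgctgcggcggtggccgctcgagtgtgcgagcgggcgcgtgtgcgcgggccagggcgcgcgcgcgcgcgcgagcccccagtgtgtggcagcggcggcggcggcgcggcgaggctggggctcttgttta
INSR, chr19:7294365-7294664, minus strand: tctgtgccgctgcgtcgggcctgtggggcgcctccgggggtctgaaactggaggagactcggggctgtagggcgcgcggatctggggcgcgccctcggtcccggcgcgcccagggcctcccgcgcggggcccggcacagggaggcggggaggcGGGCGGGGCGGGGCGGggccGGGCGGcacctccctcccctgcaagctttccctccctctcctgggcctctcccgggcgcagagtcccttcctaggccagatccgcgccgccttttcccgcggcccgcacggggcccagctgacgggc
IGFBP4, chr17:40443200-40443499, plus strand: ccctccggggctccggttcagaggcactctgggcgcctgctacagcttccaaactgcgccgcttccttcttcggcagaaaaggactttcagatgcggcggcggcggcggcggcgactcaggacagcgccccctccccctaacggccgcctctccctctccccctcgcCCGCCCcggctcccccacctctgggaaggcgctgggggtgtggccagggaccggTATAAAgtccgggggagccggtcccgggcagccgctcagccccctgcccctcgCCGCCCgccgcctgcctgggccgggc
IGFBP5, chr2:216695500-216695799, minus strand: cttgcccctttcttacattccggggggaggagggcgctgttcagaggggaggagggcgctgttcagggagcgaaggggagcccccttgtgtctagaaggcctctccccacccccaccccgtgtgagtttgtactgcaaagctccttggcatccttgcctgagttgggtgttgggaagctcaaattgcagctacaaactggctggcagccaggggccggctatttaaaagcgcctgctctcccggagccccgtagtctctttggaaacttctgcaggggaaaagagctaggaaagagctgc

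The share of G and C in the window was 79.3% for IRS1, 79.7% for IGF1R, 78.3% for INSR, 74% for IGFBP4 and 59% for IGFBP5, where the median over 35116 promoters was 58.7%. Among the genes that did not pass the test it was 78.7% for IGF2R, 74.7% for IGFBP3, 61.7% for IGFBP6 and 56.7% for IGFBP2. A high share was thus not limited to genes that fell. The IGFBP2 window, chr2:216659317-216659616, lies inside the gene, which runs from 216632828 to 216664436 on the plus strand. The IGFBP3 window, chr7:45921223-45921522, lies inside its gene too, which runs from 45912245 to 45921874 on the minus strand. Both values thus describe internal RefSeq starts and not the annotated starts of the genes. The IGFBP6 window, chr12:53097417-53097716, lies mostly inside its gene, which starts at 53097436. The INSR and IRS1 windows lie wholly upstream of the annotated starts, 7294034 and 226799759 on the minus strand. GC boxes (letters GGGCGG), the kind of site that SP1 binds, numbered 4 in IRS1, 2 in IGF1R, 4 in INSR, where some share a base, 2 in IGFBP4 and 0 in IGFBP5, and 45% of all promoter windows held at least 1. IGFBP4 had a TATA box (letters TATAAA) that starts at position -29, counted with 1 as the start of transcription, and 11.5% of all windows had such a match. IRS1 had an E-box (letters CACGTG) that starts at position 36, as 7.26% of windows did. The AP-1 letters TGANTCA, present in 7.71% of all windows, were not in these 5 windows. Neither were the FOXO letters GTAAACA, present in 3.42% of all windows. Such matches are descriptions of letters and show no binding.

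The ligand genes were near or at 0. IGF2 (with INS-IGF2, which overlaps it) and INS, the insulin gene, had 0 counts in all 6 libraries, which allows up to 3 counts, or 0.0522 CPM over the HSD52_OE libraries and 0.0569 CPM over the control libraries. IGF1 had 0 counts in the HSD52_OE libraries together and 2 in the control libraries. IGFBP1, the liver-expressed binding protein gene, had 1 count in HSD52_OE and 0 in control libraries, and IGFALS, which encodes the subunit of the circulating ternary complex, had 19 and 6. None of these genes passed the low-count filter. These limits cover counting error only.

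**Figure D2:**
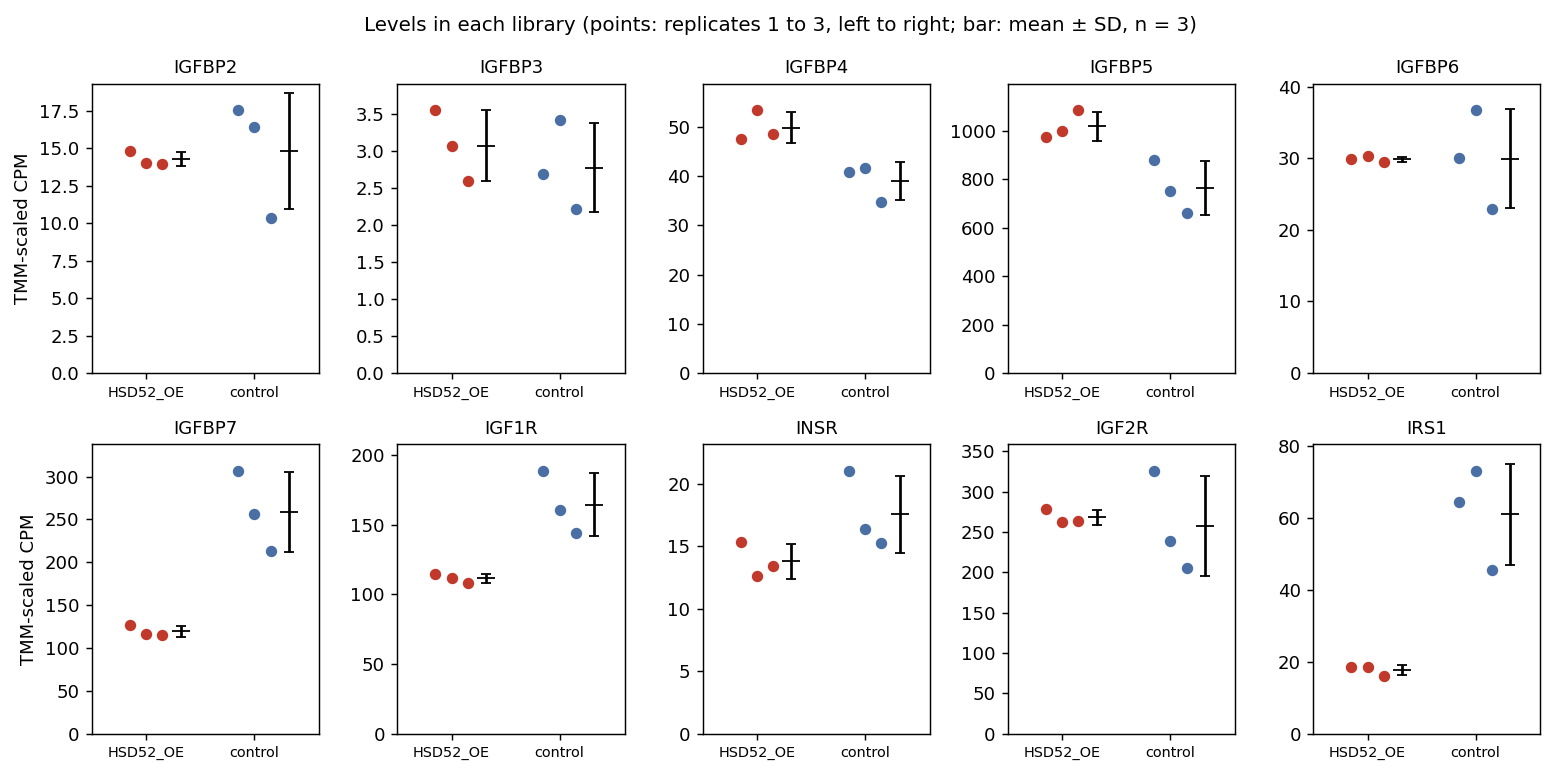
CPM after TMM scaling (linear axes from 0) of each gene in each library, with replicates 1 to 3 from left to right within a group and the mean ± SD (n = 3) beside them, HSD52_OE in red and control in blue. IRS1, IGFBP7, IGF1R, IGFBP4 and IGFBP5 separate the groups, and the HSD52_OE points of all 10 genes are less spread, relative to their mean, than the control points.

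IGFBP7 (ENSG00000163453, chromosome 4, 57030773 to 57110385, minus strand) encodes a secreted protein that binds IGFs weakly and is known as an angiogenesis-linked matrix protein of tumour vessels. It had 126, 117 and 115 CPM in HSD52_OE replicates 1 to 3, against 307, 256 and 214 CPM in control replicates 1 to 3. Every HSD52_OE library lay below every control library. The means were 119 ± 6.16 and 259 ± 46.7 CPM (SD, n = 3 each), a log2 fold change of -1.12 ± 0.11 (SE), with an edgeR Benjamini-Hochberg adjusted p = 1.41e-06. The size of this change exceeded that of 88.1% of all genes tested. The summed fibroblast markers, given above, were lower in HSD52_OE too, and their part was not tested. The antisense gene IGFBP7-AS1, which overlaps the start of IGFBP7 on the opposite strand, went the other way, with 221 counts in HSD52_OE and 34 in control libraries (log2 fold change 2.57 ± 0.27, edgeR adjusted p = 2.60e-06). POLR2B, which overlaps the other end, had a log2 fold change of -0.20 (edgeR adjusted p = 0.0622). Whether strand was used in counting is not known from the labels or notes, so reads from the overlaps cannot be assigned to a strand.

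IGFBP5 (ENSG00000115461, chromosome 2, 216672105 to 216695525, minus strand), whose product, the most conserved of the binding proteins, adheres to matrix, was the most abundant of the 10 in CPM. It had 973, 999 and 1087 CPM in HSD52_OE cells, against 879, 752 and 659 CPM in control cells. The groups did not overlap, and control replicate 1 came nearest to the HSD52_OE libraries. The means were 1020 ± 59.5 and 763 ± 110 CPM (SD, n = 3 each), with a log2 fold change of 0.42 ± 0.11 and an edgeR adjusted p = 0.00481. The size of this change exceeded that of 56.5% of all genes tested. IGFBP2, its tail-to-tail neighbour on the same chromosome (216632828 to 216664436, plus strand) and the gene of a binding protein with an integrin-binding sequence, had 14.9, 14.0 and 14.0 CPM in HSD52_OE cells and 17.6, 16.5 and 10.4 CPM in control cells. The HSD52_OE values of IGFBP2 lay inside the control range (log2 fold change -0.049, 95% interval -0.39 to 0.29, edgeR adjusted p = 0.814). Its sign turned with library totals as the only scaling (0.080), so no direction is given for it.

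IGFBP4 (ENSG00000141753, chromosome 17, 40443461 to 40457731, plus strand) encodes a binding protein known mainly as an inhibitor of IGF action, which lets go of IGF when PAPPA cuts it. It had 47.5, 53.5 and 48.6 CPM in HSD52_OE cells, against 40.9, 41.7 and 34.7 CPM in control cells. All HSD52_OE values were above all control values. The log2 fold change was 0.35 ± 0.10 (edgeR adjusted p = 0.00636). With HSD52_OE replicate 2 left out it was 0.30, with an edgeR adjusted p = 0.0519, which ends the call.

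IGFBP6, whose product prefers IGF2 over IGF1, and IGFBP3, the main carrier of IGFs in blood, did not pass. IGFBP6 (chromosome 12, 53097436 to 53102345, plus strand) had 29.9, 30.3 and 29.6 CPM in HSD52_OE cells and 30.1, 36.8 and 23.0 CPM in control cells. The HSD52_OE values were nearly equal to each other and lay in the middle of the control range (log2 fold change -0.0013, 95% interval -0.28 to 0.28, edgeR adjusted p = 0.995). IGFBP3 (chromosome 7, 45912245 to 45921874, minus strand) was the scarcest of the 10, with 66, 59 and 51 counts in HSD52_OE and 46, 60 and 40 counts in control libraries. Its groups overlapped, and at this depth the 95% interval of its log2 fold change ran from -0.34 to 0.63 (edgeR adjusted p = 0.619).

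Levels can be set against each other only per length, as CPM per kb of the gene length in the table. On this scale IGFBP5 made up 57.2%, 58.3% and 61.1% of the summed level of the 6 binding protein genes in HSD52_OE replicates 1 to 3, against 40.1%, 38.9% and 41.2% in control replicates 1 to 3. IGFBP7 made up 24.8%, 22.7% and 21.6% in HSD52_OE cells and 46.7%, 44.3% and 44.5% in control cells. The shares of both genes separated the groups. Shares of a common sum are tied, so a lower IGFBP7 share raises the shares of the other genes, and these are not separate results. IGFBP4 held 8.44% ± 0.611 in HSD52_OE and 6.04% ± 0.507 in control cells (SD, n = 3 each), and IGFBP6 held 8.27% ± 0.271 and 7.51% ± 1.39. IGFBP2 was at 1.12% and 1.04% and IGFBP3 at 0.251% and 0.206%. The summed level was 269 ± 6.26 CPM per kb in HSD52_OE and 296 ± 46.2 CPM per kb in control cells, and these ranges overlapped. Shares within a library do not depend on the scaling between libraries, but they do depend on the lengths used.

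**Figure D3:**
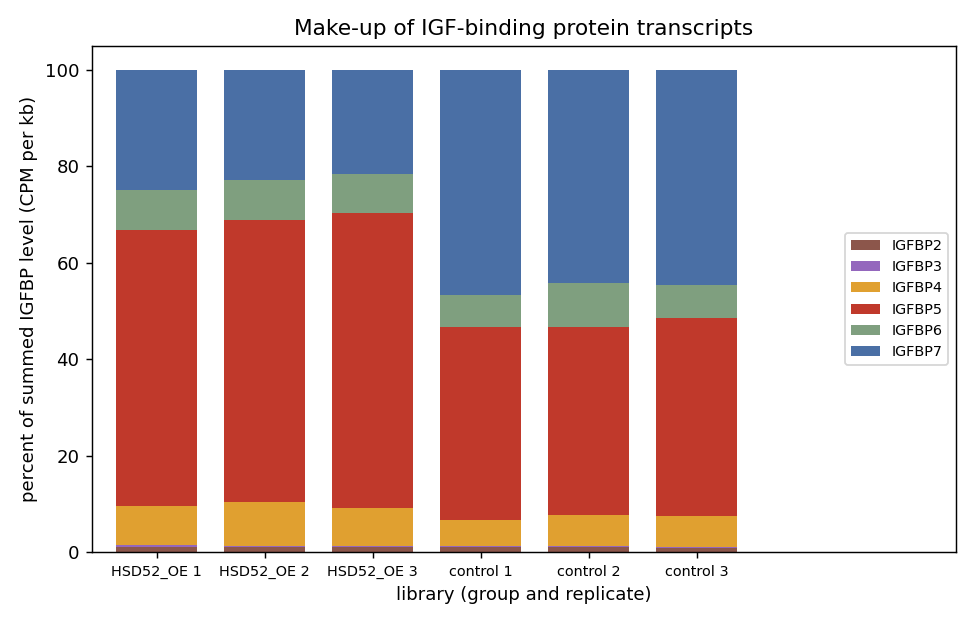
Share of each binding protein gene in the summed IGFBP level (percent of CPM per kb, stacked) in the 6 libraries, HSD52_OE replicates 1 to 3 left of control replicates 1 to 3. IGFBP5 takes 57.2% to 61.1% of each HSD52_OE bar and 38.9% to 41.2% of each control bar, and IGFBP7 takes 21.6% to 24.8% and 44.3% to 46.7%.

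In HSD52_OE cells the order of the levels, in CPM per kb, was IGFBP5 at 158 ± 9.24, IGFBP7 at 61.9 ± 3.19, IGFBP4 at 22.7 ± 1.44, IGFBP6 at 22.2 ± 0.268, IGF2R at 15.0 ± 0.521, IGF1R at 8.0 ± 0.221, IGFBP2 at 3.0 ± 0.103, IRS1 at 1.78 ± 0.145, INSR at 1.32 ± 0.132 and IGFBP3 at 0.672 ± 0.105 (SD, n = 3 each). Of these neighbours, IGFBP4 and IGFBP6 did not differ beyond their spread, and IGFBP4 was below IGFBP6 in replicate 1 and above it in replicate 2. In control cells IGFBP7 stood at 134 ± 24.2 and IGFBP5 at 118 ± 17.1, and their ranges over libraries overlapped, although IGFBP7 was the higher in each of the 3. The ranges of the next 4 levels also overlapped from one to the next, IGFBP6 at 22.2 ± 5.12, IGFBP4 at 17.8 ± 1.74, IGF2R at 14.4 ± 3.48 and IGF1R at 11.8 ± 1.63, but their order was the same within each control library. IRS1 came next at 6.13 ± 1.42, above IGFBP2 at 3.10 ± 0.812, INSR at 1.68 ± 0.295 and IGFBP3 at 0.607 ± 0.132. IRS1 thus ranked above IGFBP2 in each control library and below it in each HSD52_OE library.

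IGF1R (ENSG00000140443, chromosome 15, 98648539 to 98964530, plus strand) had 114, 112 and 108 CPM in HSD52_OE cells, against 189, 161 and 144 CPM in control cells. All HSD52_OE values were below all control values. The log2 fold change was -0.56 ± 0.10 (edgeR adjusted p = 0.000208). INSR (ENSG00000171105, chromosome 19, 7112255 to 7294034, minus strand) had 15.3, 12.6 and 13.5 CPM in HSD52_OE cells, against 21.1, 16.4 and 15.3 CPM in control cells. Its highest HSD52_OE library just exceeded its lowest control library, so the groups touched. The log2 fold change of INSR was -0.35 ± 0.14 (edgeR adjusted p = 0.0429), and this call rests on single libraries. Leaving out control replicate 1 brought its edgeR adjusted p to 0.188, leaving out HSD52_OE replicate 2 to 0.165, and leaving out HSD52_OE replicate 3 to 0.109. Over all alternatives it ran from 0.0133 to 0.188. Per length, IGF1R exceeded INSR in every library, by a ratio of 5.59, 6.63 and 6.03 in HSD52_OE and 6.72, 7.35 and 7.07 in control replicates 1 to 3, and these ratios did not overlap.

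IGF2R (ENSG00000197081, chromosome 6, 159969099 to 160113507, plus strand) had 279, 262 and 264 CPM in HSD52_OE cells and 326, 239 and 206 CPM in control cells. The HSD52_OE values lay between control replicates 1 and 2. It did not pass (log2 fold change 0.062 ± 0.13, 95% interval -0.22 to 0.34, edgeR adjusted p = 0.714). That outcome depends on the spread of the control libraries: without control replicate 1 the log2 fold change was 0.25 with an edgeR adjusted p = 0.0264, and without control replicate 3 it was -0.082. Over all alternatives the adjusted p of IGF2R ran from 0.0264 to 0.977. The ratio of IGF2R to IGF1R, per length, was 1.88 ± 0.0402 in HSD52_OE and 1.21 ± 0.123 in control cells (SD, n = 3 each), with no overlap. The pseudogene AL353625.1, on the same strand inside IGF2R, had 89 counts in HSD52_OE and 35 in control libraries, and AIRN, the antisense transcript known for imprinting of this gene in mouse, had 0 and 1.

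IRS1 (ENSG00000169047, chromosome 2, 226731317 to 226799759, minus strand) encodes the adaptor that links both receptor kinases to PI3-kinase. It had 18.7, 18.4 and 16.0 CPM in HSD52_OE cells, against 64.3, 73.1 and 45.6 CPM in control cells. The groups were far apart, since even the lowest control library stood well above the highest HSD52_OE library. The means were 17.7 ± 1.45 and 61.0 ± 14.1 CPM (SD, n = 3 each), with a log2 fold change of -1.78 ± 0.15 and an edgeR adjusted p = 3.90e-07. This change was larger in size than that of 95.3% of all genes tested. No other gene of the table overlaps IRS1.

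The related adaptor IRS2 moved in the opposite direction, with 158 ± 9.21 CPM in HSD52_OE and 95.6 ± 9.85 CPM in control cells (SD, n = 3 each; log2 fold change 0.73 ± 0.09, edgeR adjusted p = 1.18e-05). Per length, the ratio of IRS1 to IRS2 was 0.0907, 0.0962 and 0.0874 in HSD52_OE replicates 1 to 3, against 0.540, 0.573 and 0.439 in control replicates 1 to 3. IRS2 was the more abundant in all 6 libraries, and more so in each HSD52_OE library. IRS4, a further family member, had 9 counts in HSD52_OE and 0 in control libraries and was not tested.

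Other genes of the pathway were taken from 8 lists of 128 genes, arranged by role. Of 110 tested, 14 rose and 46 fell, or 12.7% and 41.8%, where among all protein-coding genes tested 21.4% rose and 30.1% fell. The counts of single lists below stand against the same shares, and no list was tested as a set. Their median log2 fold change was -0.17, that of protein-coding genes -0.056. With library totals as the only scaling, the median of all genes shifted by 0.12 on the log2 scale, the lists had 27 higher and 31 lower, and all genes tested had 5337 higher and 2933 lower, against 4086 higher and 4173 lower with composition scaling.

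**Figure D4:**
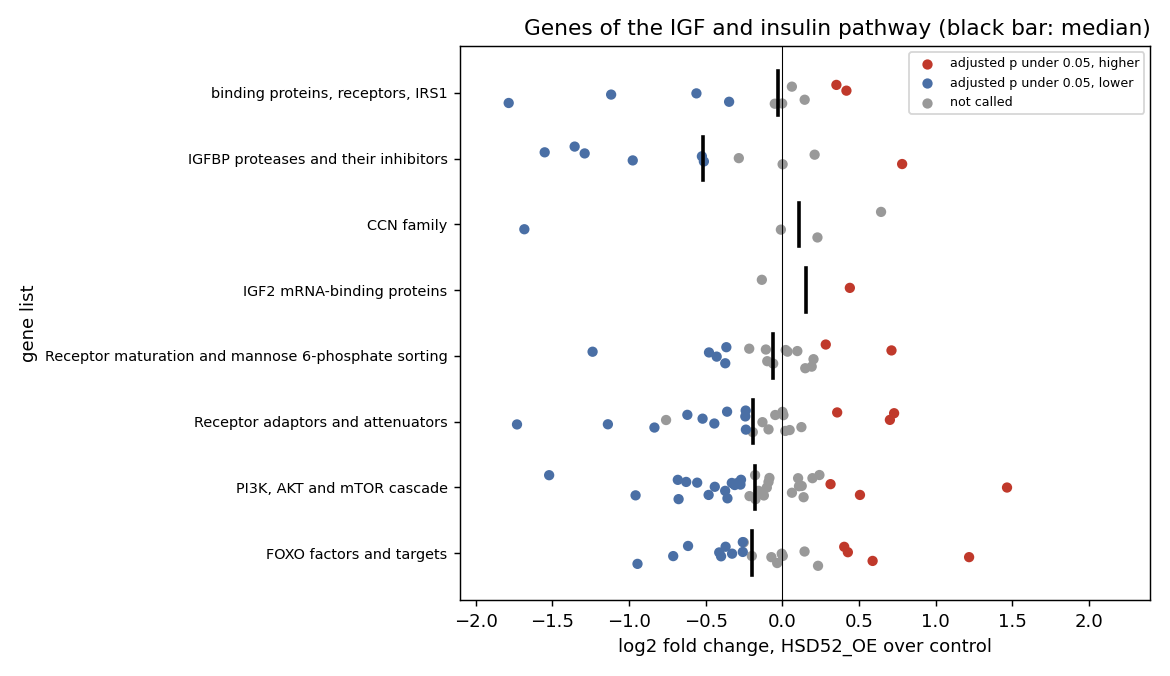
Log2 fold changes, HSD52_OE over control, of the tested genes of each list (points; red and blue passed the test as higher and lower, grey did not; black bars are medians), with the 10 genes of the family in the top row. The list of IGFBP proteases has the lowest median, -0.52, and SGK1 in the PI3K list and KLF6 in the FOXO list lie farthest to the right, at 1.46 and 1.22.

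Of 10 tested genes for proteases that cut binding proteins and for inhibitors of those proteases, 1 rose and 6 fell, and without control replicate 1 the number that rose was 2. MMP2, the gelatinase, averaged 843 ± 29.0 CPM in HSD52_OE and 2060 ± 331 CPM in control cells. ADAM12, a metalloprotease that cleaves IGFBP3 and IGFBP5, had 20.3 ± 0.915 and 51.9 ± 3.46 CPM. HTRA1, a serine protease that cleaves IGFBP5, had 133 ± 7.0 and 192 ± 19.6 CPM. PAPPA, which releases IGF from IGFBP4, and STC2, an inhibitor of PAPPA, were added for their role after their values were seen. PAPPA had 6.28 ± 0.579 CPM in HSD52_OE and 8.97 ± 3.06 CPM in control cells (edgeR adjusted p = 0.0464), and STC2 had 8.35 ± 1.08 and 16.4 ± 5.29 CPM (edgeR adjusted p = 0.00183). PLAT, tissue plasminogen activator, was the gene that rose, at 519 ± 8.86 CPM in HSD52_OE and 302 ± 62.5 CPM in control cells (SD, n = 3 each, for all these values).

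Of 23 tested adaptors and attenuators of the receptors, 3 rose and 10 fell. IRS2, the regulator of receptor turnover MDM2 and the adaptor SH2B1 rose, by log2 fold changes of 0.73, 0.70 and 0.36. SH2B2, an adaptor of the insulin receptor, had 2.97 ± 0.137 CPM in HSD52_OE and 9.88 ± 1.50 CPM in control cells (SD, n = 3 each). SOCS3, a feedback inhibitor of cytokine and insulin signalling, fell by 1.14 on the log2 scale and PTPRF, a receptor phosphatase, fell by 0.83. The 10 that fell hold both mediators and inhibitors of signalling.

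Of 33 tested genes of the PI3K, AKT and mTOR cascade, 3 rose and 15 fell. With library totals alone 9 rose and 9 fell. SGK1, a kinase related to AKT, had 185 ± 9.63 CPM in HSD52_OE and 66.9 ± 4.30 CPM in control cells. RICTOR, which defines mTOR complex 2, rose by a log2 fold change of 0.51, and PIK3R1, a regulatory subunit of PI3-kinase, by 0.31. PIK3CD, a catalytic subunit, had 9.17 ± 0.353 CPM in HSD52_OE and 26.3 ± 4.81 CPM in control cells (SD, n = 3 each). TBC1D4, the AKT substrate that controls glucose transporter traffic, fell by 0.96 on the log2 scale and AKT1 fell by 0.68.

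Of 17 tested genes for receptor maturation and mannose 6-phosphate sorting, 2 rose and 5 fell, and with library totals alone 6 rose and 4 fell. The share that fell, 29.4%, is near the 30.1% of all protein-coding genes tested. Without HSD52_OE replicate 1 the number that rose was 1. M6PR, the cation-dependent mannose 6-phosphate receptor that shares cargo with IGF2R, had 219 ± 2.59 CPM in HSD52_OE and 133 ± 14.3 CPM in control cells (SD, n = 3 each). The sorting adaptor GGA1 rose by a log2 fold change of 0.28, while GGA3 and the clathrin adaptor subunit AP1M1 fell by 0.48 and by 0.37 on that scale. LRP1, an endocytic receptor that takes up many secreted proteins, fell by 1.24. FOXO factors are kept out of the nucleus by AKT. Of 21 FOXO factors and target genes, 4 rose and 9 fell. With library totals alone 6 rose and 5 fell, and without HSD52_OE replicate 2 the number that fell was also 5. KLF6, GADD45A and CDKN1B rose by log2 fold changes of 1.22, 0.59 and 0.40, and SOD2, TXNIP and BNIP3 fell by 0.94, by 0.61 and by 0.40 on that scale. IGF2BP3, an RNA-binding protein that binds IGF2 mRNA, rose by a log2 fold change of 0.44, as 1 of 2 tested in its list. In the CCN family of matrix proteins with an IGFBP-like domain, WISP1 fell by 1.68 on the log2 scale, as 1 of 4 tested. No gene of that family rose, but 1 did without HSD52_OE replicate 3 and also without control replicate 2.

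Genes whose start lay within 1 Mb were listed around each of the 10 genes, and their counts stand against 25.0% higher and 25.6% lower over all genes tested. Near IRS1 6 were tested, of which 4 fell and 0 rose. Their log2 fold changes ran from -1.70 to -0.27 (median -0.43), and IRS1 lay below all 6. Near IGF1R 1 rose and 4 fell of 8 tested (median -0.36), and IGF1R lay below all 8. That median was -0.18 without HSD52_OE replicate 3 and -0.23 without control replicate 2. IGFBP7 lay below all 10 tested around it, of which 3 rose and 3 fell (median -0.064, and -0.15 without control replicate 2). INSR, at -0.35, stood at the middle of the 33 genes around it, where the median was -0.35, with 3 higher and 15 lower. IGFBP5 stood above 9 of the 10 genes around it, and IGFBP2 shares those neighbours apart from the pair itself. IGFBP4 stood above 20 of 28, with 6 higher and 6 lower around it.

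**Figure D5:**
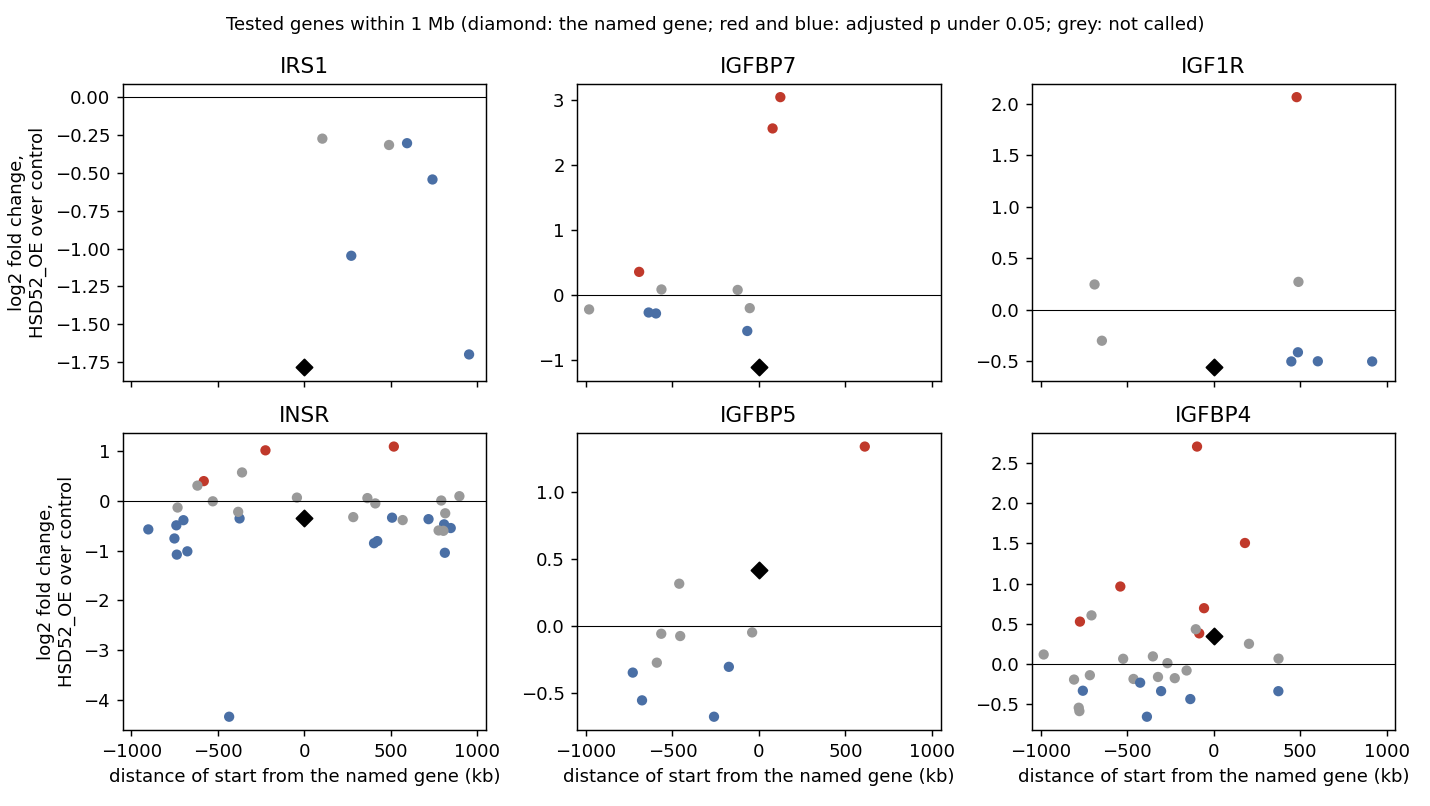
Log2 fold changes, HSD52_OE over control, of tested genes within 1 Mb of the 6 genes that passed the test, against the distance between starts in kb (diamond, the gene in the panel title; red and blue passed the test as higher and lower; grey did not; each panel has its own vertical scale). IRS1, IGFBP7 and IGF1R are the lowest points of their panels, and INSR lies among its neighbours.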

How the data were processed

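Per the submitters' processing notes, which give no roles, CASAVA, HISAT2 2.0.5 and featureCounts 1.5.0-p3 were used with hg38. The deposited values were raw counts per gene in 1 table. The sources used here do not name the annotation release, strand setting or read filters. Symbols, coordinates and gene lengths are those of the table. Counts were filtered with filterByExpr, scaled by TMM and tested with edgeR 4.0.16 (quasi-likelihood, robust, 2-sided, group alone; limma 3.58.1, R 4.3.3), and p-values were adjusted by Benjamini-Hochberg over every gene in the fit, with 0.05 as the threshold. In these libraries 1 CPM is 17.1 to 19.7 counts. Values are mean ± SD over 3 libraries, and log2 fold changes, HSD52_OE over control, carry their SE after ±. The steps were run on simulated data with equal spread in both groups and most genes unchanged. That setting is simpler than these libraries, so the run does not show how the steps handle their unequal spread.

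The 10 genes and the lists were chosen with earlier results of these data known. From each list the text names up to 3 genes per direction with the smallest p that passed the test and averaged 1 CPM or more. Alternatives were RLE factors, library totals alone, no filter, a floor of 1 CPM in 3 libraries, limma-voom, protein-coding genes alone, a replicate block, DESeq2 1.42.0, each library left out in turn, and levels without division by length.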

Additional observations from a re-analysis of the deposited data

How the results depend on the processing

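Over the 14 alternatives, IRS1, IGFBP7, IGF1R and IGFBP5 kept their direction and stayed past the threshold, with log2 fold changes of -1.96 to -1.64, -1.24 to -0.99, -0.65 to -0.43 and 0.32 to 0.55. IGFBP4 did so in all but the fit without HSD52_OE replicate 2, and its values with a library left out ran from 0.27 to 0.39. The number of family genes called higher was then 1 to 3 and that called lower 3 to 4. INSR was no longer called with library totals (-0.22, edgeR adjusted p = 0.183), the filter of 1 CPM in 3 libraries (-0.32, 0.0590), DESeq2 (-0.35, 0.0528) or protein-coding genes alone (-0.29, 0.0875), and with a library left out it ran from -0.45 to -0.21. IGF2R ran from -0.082 to 0.25 with a library left out. Among the genes that were never called, IGFBP3 kept its sign, and IGFBP2 and IGFBP6 did not. IGFBP3 ran from 4.8e-05 to 0.32 with a library left out, so its sign was barely kept. IGFBP2 was 0.080 with library totals, 0.0094 with protein-coding genes alone and -0.26 to 0.076 with a library left out. IGFBP6 was 0.13 with library totals, 0.025 with the 1 CPM filter, 0.026 with limma-voom, 0.057 with protein-coding genes alone and -0.17 to 0.17 with a library left out. The pathway lists had 27 higher genes with library totals. The cause of these shifts was not tested. Without division by length, IGFBP5 was 82.4% of the summed IGFBP level in HSD52_OE and 68.9% in control cells, and the ratio of IGF1R to INSR was 8.12 and 9.40. Medians of neighbouring genes moved by more than the spread between libraries in 31 of their fits and stayed within it in 109.

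The replicate numbers were not stated to pair libraries, and deviations of same-numbered libraries correlated at 0.0383, 0.0307 and 0.0328 over genes, below 0.1, though each library correlated best with its own number. With a replicate block 4210 genes were higher and 4226 lower, IGFBP6 was 0.020 and no call among the 10 genes changed.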

Other observations

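Among 13145 other protein-coding genes, those whose log2 CPM, centred on their own mean, lay nearest to a family gene over the 6 libraries were looked up for the 3 genes with the smallest p. Nearest to IRS1 were SH2B2, an adaptor of the same receptor (Euclidean distance 0.280), PKDCC (0.281) and MYO18A (0.319). SH2B2 averaged 2.97 CPM in HSD52_OE and 9.88 CPM in control cells, and MYO18A 45.4 and 154 CPM. Nearest to IGFBP7 were KIRREL1 (0.125), LRP5 (0.138), a WNT co-receptor gene, and ADGRL3 (0.172). KIRREL1 averaged 147 CPM in HSD52_OE and 306 CPM in control cells. Nearest to IGF1R were ZMYM3 (0.0387), DAG1 (0.0494), the dystroglycan gene, and TRRAP (0.0765). DAG1 averaged 502 CPM in HSD52_OE and 741 CPM in control cells. With 6 libraries in 2 groups, such likeness is mostly a like difference between the groups and is given as a description.

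IGF2R, which did not pass the test, had the most matches to the promoter motifs among the 9 windows. Its RefSeq window held 6 GC boxes and 3 E-boxes, where 7.26% of all windows held any E-box.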
